A study of Mus musculus with 12 samples.

Results

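The nuclear genes of the mitochondrial respiratory chain were described across 12 RNA-seq libraries of mouse cochlea. Members were chosen by symbol. Every row whose symbol begins with Ndufa, Ndufb, Ndufc, Ndufs, Ndufv, Uqcr, Cox4i, Cox5, Cox6, Cox7, Cox8 or Atp5 was taken, with Sdha, Sdhb, Sdhc and Sdhd, and 16 symbols that contain -ps or Ndufaf were left out. This gave 89 of the 34538 genes measured: 41 in complex I, 4 in complex II, 8 in complex III, 19 in complex IV and 17 in complex V, each placed by its symbol. The rule uses no measured value. All libraries came from wild type C57BL/6J mice aged 12 months. The coffee group drank water with 0.1% black coffee from the age of 3 months, the GTE group drank water with 0.006% green tea extract from the same age, and the control group drank plain water. Each group had 4 libraries, and the labels do not say that these came from separate animals. A p-value therefore reflects only how far the libraries of a group differ, which may be technical variation.

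The respiratory chain sits in the inner mitochondrial membrane. Complexes I and II take electrons from NADH and succinate, complex III passes them to cytochrome c, and complex IV gives them to oxygen. Complexes I, III and IV pump protons, and complex V, the ATP synthase, uses the proton gradient to make ATP. Most subunits are encoded in the nucleus and a few core subunits in the mitochondrial genome, so both sets must be made for a complex to form. Several subunits of complex IV come in tissue isoforms, with separate genes for muscle, brown fat, lung or testis. In the cochlea the stria vascularis is rich in mitochondria, since its ion pumps hold the endocochlear potential.

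Promoters of these genes were read because their transcription is known to depend on shared factors, among them nuclear respiratory factor 1 (NRF-1), whose binding sequence was searched as GCGCA, any base, then GCGC. RefSeq promoters (build GRCm38.p6, 250 bases before to 50 after the gene start) were found by symbol for 69 of the 89 members. On either strand, 17 of the 69 (24.6%) held the NRF-1 letters, against 10.3% of tested genes and 5.19% of all genes with a promoter in the table. The YY1 letters AAGATGGC stood in 10 members (14.5%, against 4.80% of tested genes and 3.19% of all), and the estrogen-related receptor letters AAGGTCA in 8 (11.6%, against 4.04% and 5.38%). The ETS letters CCGGAAGT stood in 5 (7.25%, against 8.09% and 4.31%) and TATAAA in 7 (10.1%, against 9.11% and 15.7%). Both strands were searched for every motif, and a promoter holding several motifs counted under each. A match is a description of the letters and not a binding site. The stretches printed here show the NRF-1 letters, in capitals, upstream of the start of a member of complexes I, II, IV and V, 5′ to 3′ on the strand of the gene (all 5 genes lie on the minus strand).
Ndufs5: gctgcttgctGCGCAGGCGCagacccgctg
Sdha: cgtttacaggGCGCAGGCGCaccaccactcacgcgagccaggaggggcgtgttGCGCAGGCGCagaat
Sdhd: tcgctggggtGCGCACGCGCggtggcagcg
Cox6a1: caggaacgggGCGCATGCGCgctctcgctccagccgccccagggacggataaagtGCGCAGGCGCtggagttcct
Atp5h: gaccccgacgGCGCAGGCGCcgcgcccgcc
They lie at chr4:123718265-123718294 (Ndufs5, an accessory subunit of complex I), chr13:74350281-74350348 (Sdha, the flavoprotein of complex II) and chr9:50603909-50603938 (Sdhd, a membrane anchor of complex II). The Cox6a1 stretch lies at chr5:115349056-115349130 and the Atp5h stretch, of subunit d of the ATP synthase, at chr11:115420041-115420070. Cox6a1, the isoform of subunit VIa used outside muscle, held the letters 2 times in 75 bases, and Sdha 2 times in 68 bases. Among the 13 members of complex IV with a promoter in the table, Cox6a1 was the 1 that held them.

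The members were abundant. The deposited unit is FPKM, which divides fragments by gene length and library size and so allows levels to be compared between genes, as far as the length used holds. The median member had a mean of 54.6 FPKM over the 12 libraries, against 6.40 FPKM for the median of the 15854 genes tested. Of the 89 members, 75 averaged at least 10 FPKM and 22 at least 100 FPKM, and the members made up between 1.48% and 2.37% of all FPKM in a library. By complex, the median mean level was 43.6 FPKM in complex I, 75.04 in complex II, 83.7 in complex III, 63.3 in complex IV and 51.6 in complex V.

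**Figure D1:**
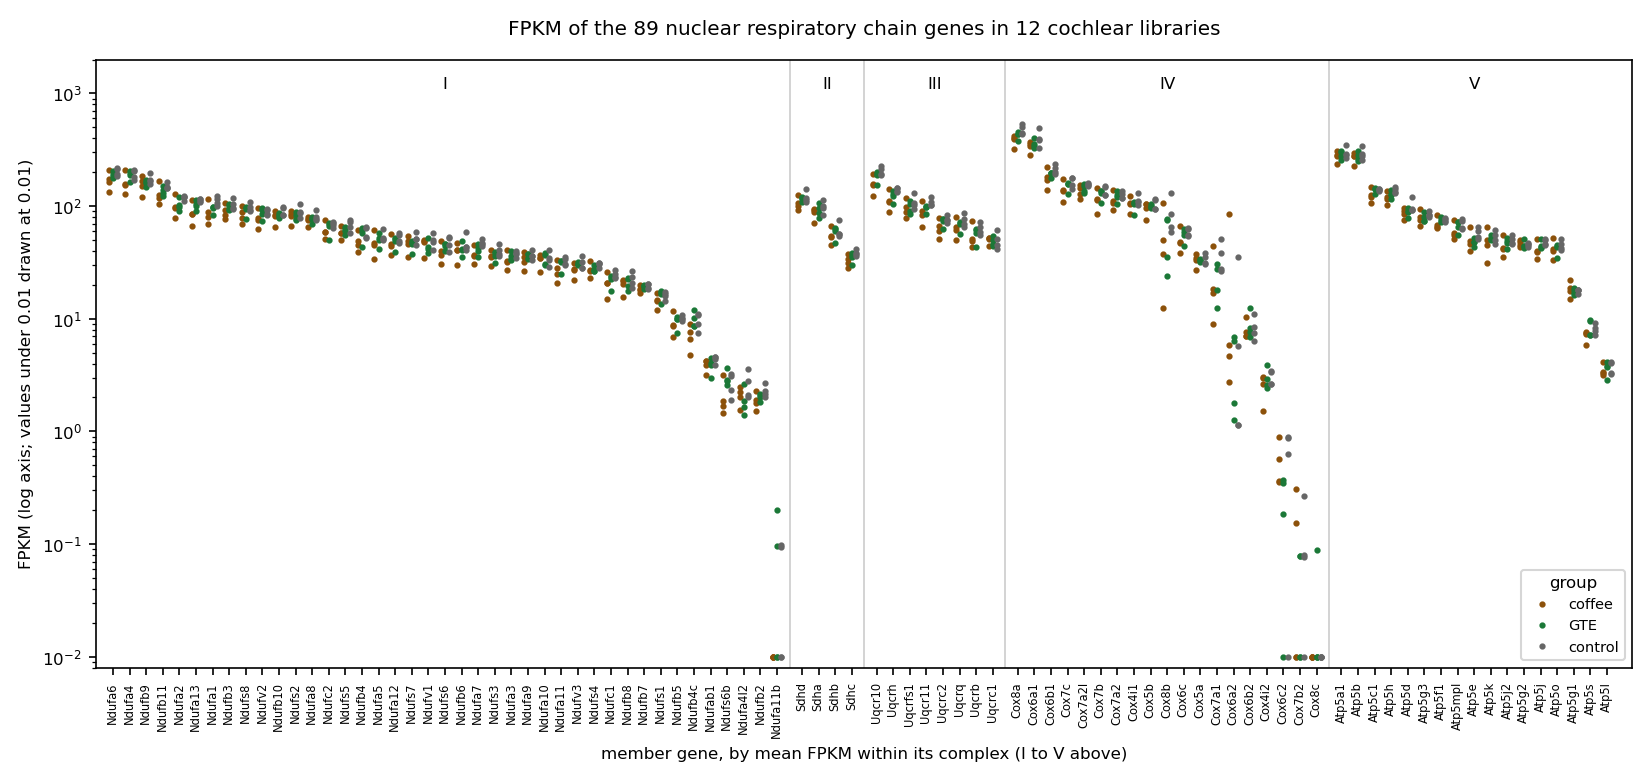
FPKM of each of the 89 members (log axis; values under 0.01 drawn at 0.01) in the 12 libraries, by complex and by mean level within a complex, with 1 point per library coloured by group. Most members lie within a narrow band in every library, Cox8a is the highest at a mean of 428.6 FPKM, and Cox6a2, Cox8b and Cox7a1 are spread widely.

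The highest member was Cox8a, the widespread isoform of subunit VIII of complex IV, with a mean of 428.6 FPKM. Cox6a1 followed with 364.0 FPKM, and then Atp5a1 and Atp5b, the alpha and beta subunits of the catalytic head of the ATP synthase, with 285.7 and 279.5 FPKM. The highest members of complex I were Ndufa6 (187.9 FPKM), Ndufa4 (180.4 FPKM) and Ndufb9 (162.9 FPKM). Ndufa4 carries a complex I name but is known as a partner of complex IV, and it was kept under complex I by its symbol. In complex II, Sdhd (113.7 FPKM) and Sdha (92.1 FPKM) stood above Sdhb (58.0 FPKM), the iron-sulfur subunit, and Sdhc (35.4 FPKM), the other membrane anchor. In complex III, Uqcr10, a small subunit, led with 182.4 FPKM, before Uqcrh, the hinge protein, with 124.9 FPKM and Uqcrfs1, the Rieske iron-sulfur protein, with 100.8 FPKM. In complex V, Atp5c1, the gamma subunit that turns within the head, had 134.5 FPKM.

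Low values came from a few kinds of member. Cox7b2 and Cox8c, isoforms known from testis, lay at 0 to 0.306 FPKM and 0 to 0.0886 FPKM over the 12 libraries, and germ cell markers were also low (Prm1 0 to 0.535 FPKM, Ddx4 0.185 to 0.605 FPKM). Cox6c2 (0 to 0.897 FPKM) and Ndufa11b (0 to 0.201 FPKM), both annotated as processed pseudogenes, were the other members below the filter of 1 FPKM in at least 4 libraries. These 4 members were not tested, which left 85. Not every testis isoform was this low, as Cox6b2 of subunit VIb stood at 6.40 to 12.5 FPKM. Ndufb4c and Ndufs6b, the other members annotated as pseudogenes, passed the filter with means of 8.81 and 2.56 FPKM. Every 50-base word of Ndufb4c also occurs in Ndufb4 transcripts, and 25.4% of those of Ndufs6b in Ndufs6, so reads of parent and copy may be split between them. Ndufb2 (2.06 FPKM), Atp5l (3.60 FPKM) and Ndufab1 (4.02 FPKM) were low for obligate subunits, with annotated exon lengths of 5628, 6443 and 6883 bases. Of other long members, Ndufs1, a core subunit of complex I with 8086 bases, had 15.6 FPKM. Ndufb5 (4995 bases) had 9.53 FPKM, Atp5g1 (4912 bases) 17.9 FPKM and Ndufb7 (4522 bases) 19.0 FPKM. Atp5b (4237 bases) and Atp5a1 (3135 bases) were among the highest, while every member longer than Atp5b lay below the median member. The part of annotated exon length in these values was not tested.

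Across libraries the members moved together. For each member the deviation of log2(FPKM + 1) from its own mean over 12 libraries was taken, and the median deviation over the 85 tested members was -0.36, -0.10, 0.18 and -0.095 in coffee libraries 1 to 4. It was -0.16, 0.056, 0.057 and 0.057 in GTE libraries 1 to 4, and 0.014, 0.24, 0.034 and 0.12 in control libraries 1 to 4. The 4 control libraries were all above 0, while the coffee group held both the lowest library and the second highest, so the groups overlapped. Coffee 1 was the lowest of the 12 libraries for 73 of the 85 members, control 2 the highest for 46 and coffee 3 the highest for 21. The median deviation of all tested genes stayed between -0.050 and 0.023. The SD of a member over the 12 libraries had a median of 0.193, and of 0.088 once the median deviation of each library was taken out. For all tested genes the median SD was 0.201, and 0.199 once their own library medians were taken out. Those medians were near 0 in every library, so that step could change little. It does not show whether other sets of genes move together as the members did. These spreads are descriptions, since the members share the libraries.

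**Figure D2:**
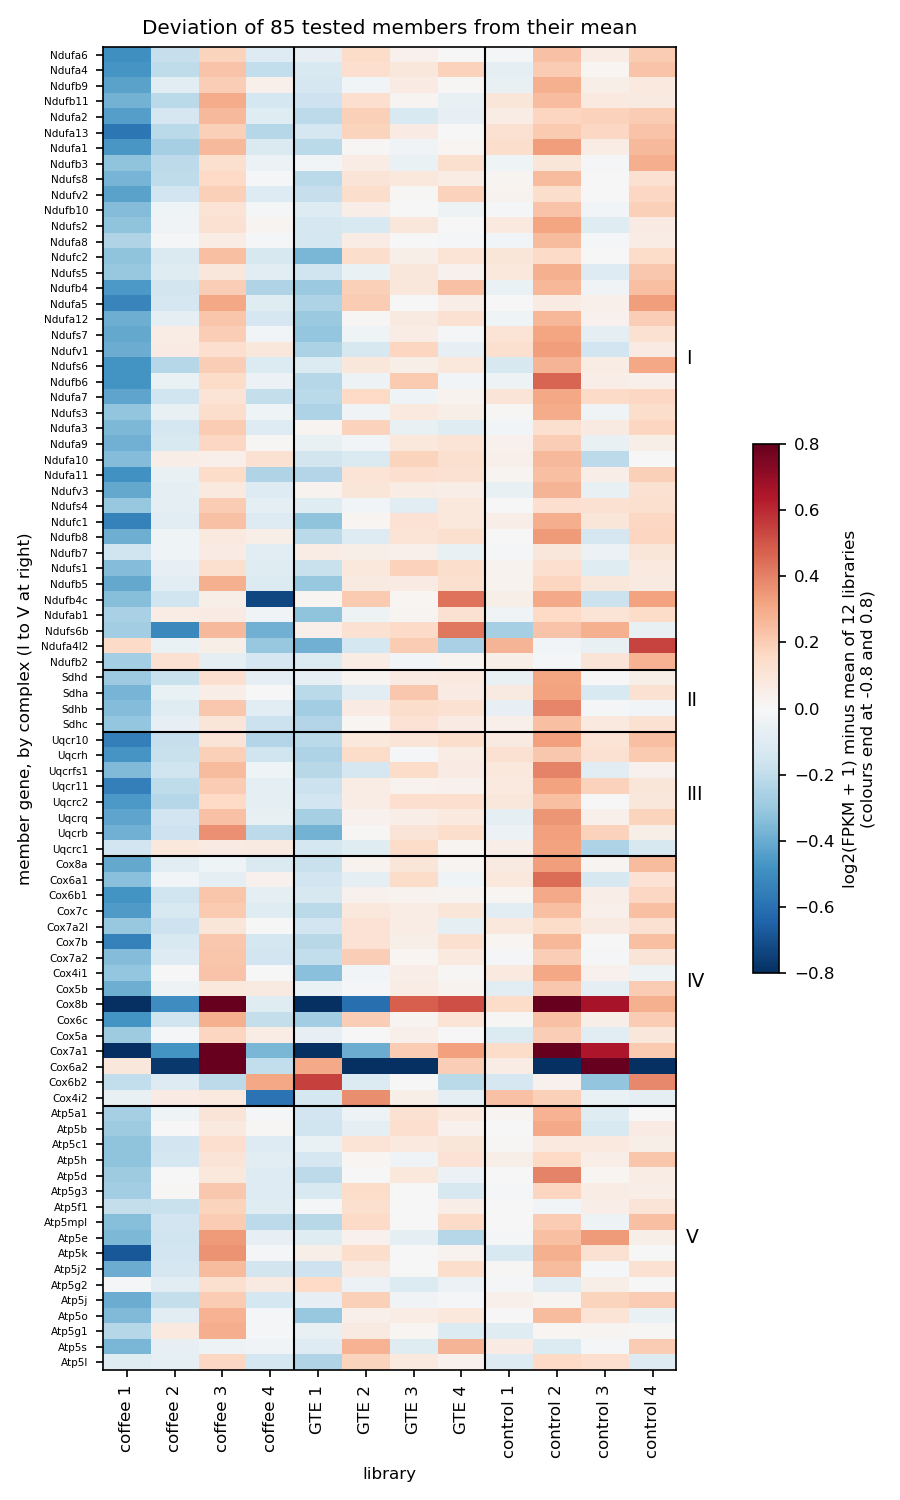
Deviation of log2(FPKM + 1) of each of the 85 tested members (rows, by complex) from its mean over the 12 libraries (columns, by group), with colours ending at -0.8 and 0.8. The column of coffee 1 is low in nearly every row (the lowest library for 73 members), coffee 3 and control 2 are high, and the rows of Cox8b, Cox7a1 and Cox6a2 stand apart.

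Coffee 1 was the lowest library and control 2 the highest in complexes I to IV, and in complex V coffee 1 was again the lowest but coffee 3 the highest. The median deviation in coffee 1 was -0.39, -0.33, -0.44, -0.37 and -0.32 in complexes I to V, and in control 2 it was 0.25, 0.32, 0.33, 0.24 and 0.17. The summed FPKM of complex IV averaged 1794 ± 312 FPKM in coffee, 1891 ± 160.2 FPKM in GTE and 2125 ± 222 FPKM in control libraries (SD, n = 4 each). Complex I summed to 2164 ± 368 FPKM in coffee, 2321 ± 170.2 FPKM in GTE and 2508 ± 192 FPKM in control libraries.

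Markers of tissues that a dissected cochlea can carry, and of cochlear cell types, also differed between libraries and groups. In bulk tissue, fewer cells of a type and less RNA per cell cannot be told apart. Of all tested genes, 48.2% had lower means in coffee than in control, and 10.8% were lower at an unadjusted limma p under 0.05. Higher means in coffee were seen in 51.8%, and 9.25% were higher at that threshold. In GTE against control 48.4% were lower and 51.6% higher, and in GTE against coffee 49.5% were higher. All 18 genes of a myeloid marrow list (granule and neutrophil genes such as Elane, S100a9 and Ngp) had higher means in coffee than in control libraries, 12 of them at an unadjusted limma p under 0.05. Their summed level ranged from 18967 to 30892 FPKM in coffee, 13450 to 35654 FPKM in GTE and 11392 to 18182 FPKM in control libraries, with none at 0. GTE 1 and coffee 1, the lowest libraries for the members, were the highest for this list, but coffee 3, the second highest for the members, also stood above every control library, at 26218 FPKM. All 5 tested genes of a brown fat list of 6 had lower means in both treated groups than in control. Their summed level ranged from 12.9 to 179 FPKM in coffee, 14.6 to 181 FPKM in GTE and 86.4 to 537 FPKM in control libraries. Ucp1 had 2.02, 74.4, 79.8 and 124 FPKM in coffee libraries 1 to 4 and 2.49, 0.0745, 106 and 123 FPKM in GTE libraries 1 to 4, against 128, 423, 47.4 and 111 FPKM in control libraries 1 to 4. Ucp1, the uncoupling protein of brown fat, was near 0 in coffee 1, GTE 1 and GTE 2 and highest in control 2. Genes of the stria vascularis (15 of 15 lower in coffee than in control, 12 at an unadjusted p under 0.05) summed to 342 to 581 FPKM in coffee, 368 to 680.5 FPKM in GTE and 649 to 722 FPKM in control libraries, with none at 0. Coffee 3 was at 581 FPKM, below every control library, while its members were high. All 9 spiral ligament genes also had lower means in coffee than in control, 8 at an unadjusted p under 0.05, as did 9 of 11 tested hair cell genes, which summed to 169 to 231 FPKM in coffee, 199.7 to 348 FPKM in GTE and 258 to 311 FPKM in control libraries. Red cell precursor genes had higher means in GTE than in coffee and than in control in 12 of 12 each, and in coffee than in control in 8 of 12. They summed to 1887 to 5364 FPKM in coffee, 4118 to 9091 FPKM in GTE and 3120.0 to 5157 FPKM in control libraries. Of 10 spiral ganglion neuron genes, 9 had higher means in coffee and 9 in GTE than in control. For marrow and brown fat, and for the libraries with low stria sums, fits with the list as a covariate or the libraries left out are given with the comparisons. A fit with the skeletal muscle list as a covariate is given for coffee against control. In coffee against control the marrow fit cannot tell list and group apart, and the part of the other lists in the members' values was not tested. The cochlear marker Coch, a matrix gene of the spiral ligament, stood at 1080 to 2335 FPKM and the outer hair cell motor gene Slc26a5 at 0.834 to 3.31 FPKM, so the labelled tissue was present in every library.

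**Figure D3:**
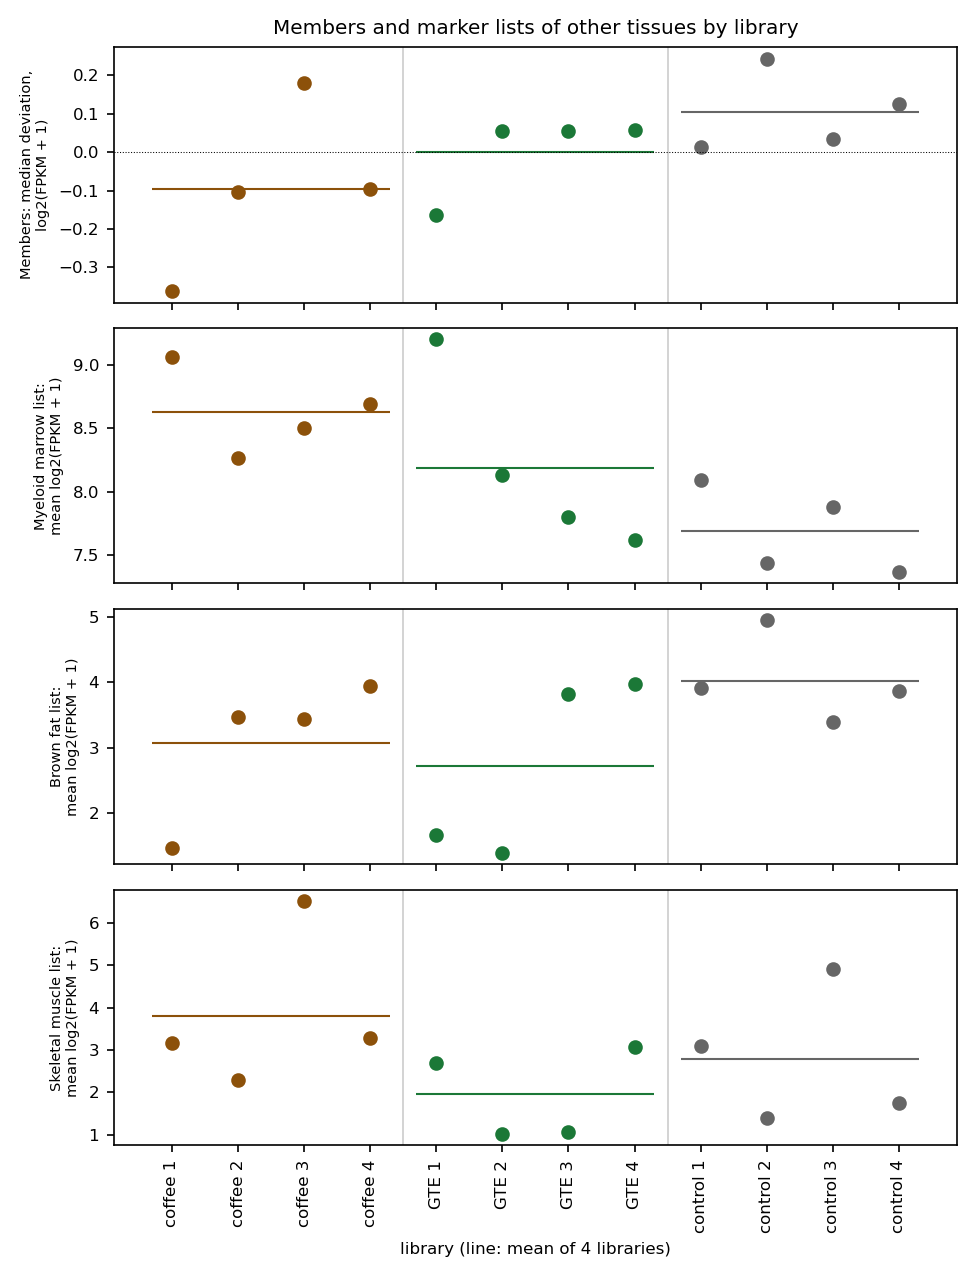
Median deviation of the 85 tested members (top) and mean log2(FPKM + 1) of the myeloid marrow, brown fat and skeletal muscle lists (below) in each library, with a line at the mean of each group of 4. Coffee 1 and GTE 1 are the lowest libraries for the members, at -0.36 and -0.16, and the highest for the marrow list, while control 2 is the highest for the members and the brown fat list.

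In coffee against control libraries, no member passed the adjusted threshold, and nearly all had lower means. Limma on log2(FPKM + 1) called 0 of 85 members at an adjusted p under 0.05, where it called 0.00631% of all tested genes, and the smallest adjusted p of a member was 0.206. Lower means in coffee were seen in 81 of the 85, against 48.2% of all tested genes, and higher means in 4, against 51.8%. The median log2 difference of the members was -0.20, against 0.010 for all tested genes. By complex the median difference was -0.20 in complex I (40 of 40 lower), -0.18 in complex II (4 of 4 lower), -0.24 in complex III (7 of 8 lower), -0.21 in complex IV (15 of 16 lower) and -0.16 in complex V (15 of 17 lower). At an unadjusted p under 0.05, 10 members were lower (11.8%, against 10.8% of all tested genes) and 0 higher (against 9.25%), a share of lower members close to that of all genes. Voom on recovered whole fragments gave 0 calls among 70 members, with 8 lower at an unadjusted p under 0.05 (11.4%, against 10.4% of all genes in that fit).

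**Figure D4:**
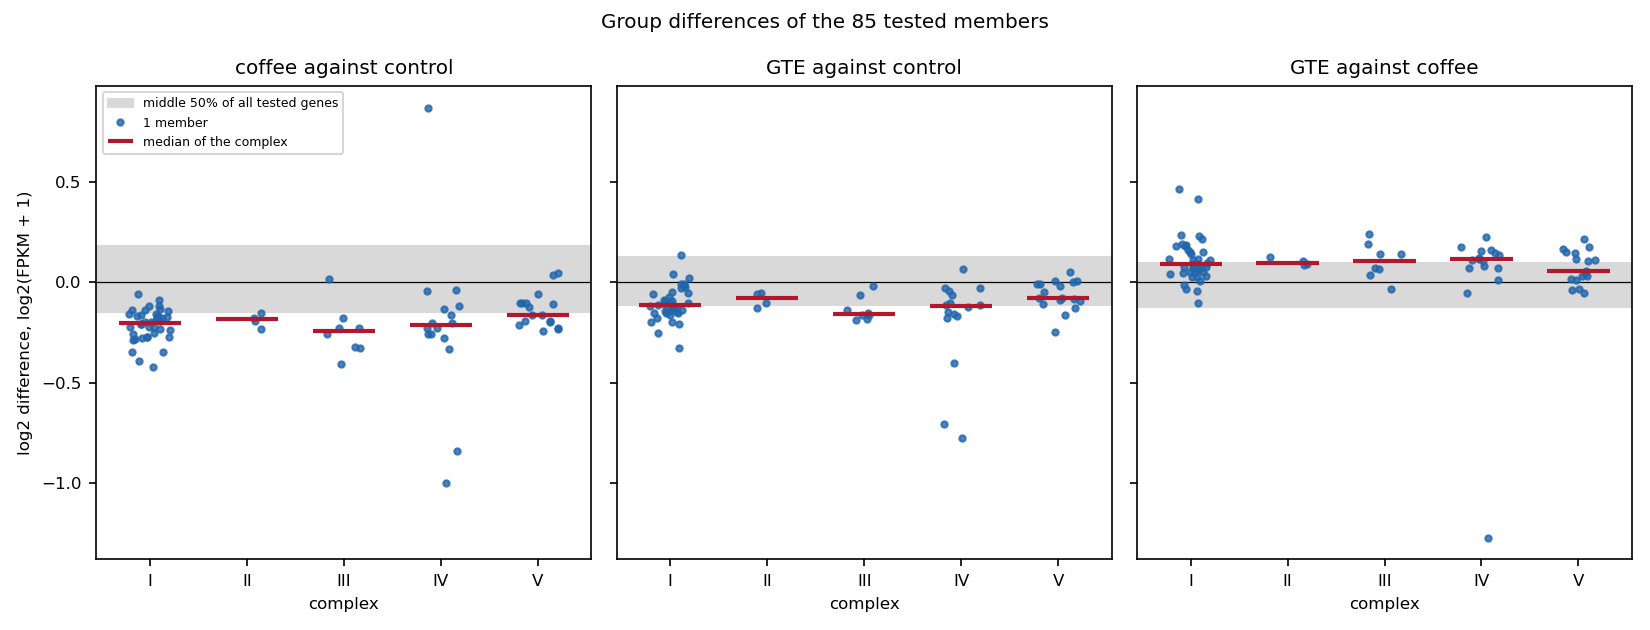
Log2 difference of each of the 85 tested members on the log2(FPKM + 1) scale, by complex, in coffee against control, GTE against control and GTE against coffee, with the median of each complex as a bar and the middle 50% of all tested genes as a grey band. The medians lie below 0 in both comparisons with control, at -0.20 and -0.11 over all members, and above 0 in GTE against coffee, at 0.093.

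The 4 members with the smallest p belong to complexes I, III and IV and none is a catalytic subunit. Ndufa7 had 30.6, 36.9, 44.8 and 36.2 FPKM in coffee libraries 1 to 4 and 35.5, 46.4, 40.3 and 42.2 FPKM in GTE libraries 1 to 4, against 44.5, 51.5, 46.1 and 46.6 FPKM in control libraries 1 to 4. Ndufa7 (chr17:33824572-33838317, mm10), an accessory subunit of complex I, overlapped between groups only through coffee 3, and its log2 difference was -0.35 (SE 0.11, adjusted p = 0.206). Uqcr10 had 123, 158, 194 and 153 FPKM in coffee libraries 1 to 4 and 155, 191, 193 and 199 FPKM in GTE libraries 1 to 4, against 189.5, 227, 194 and 213 FPKM in control libraries 1 to 4. Uqcr10 (chr11:4701973-4704342) differed by -0.40 (SE 0.13, adjusted p = 0.21), again with coffee 3 within the control range. Cox8a had 320.1, 398, 415 and 392 FPKM in coffee libraries 1 to 4 and 376, 434, 454 and 432 FPKM in GTE libraries 1 to 4, against 447, 536, 432 and 507 FPKM in control libraries 1 to 4. The coffee values of Cox8a (chr19:7215153-7217616) were all under its control values, and it was the 1 member whose groups did not overlap (1.18% of members, against 6.89% of all tested genes; 0 members lay wholly higher in coffee, against 5.93%). Its difference was -0.33 (SE 0.11, adjusted p = 0.21). The 95% interval of the Cox8a difference was -0.58 to -0.09, and the two-sided exact permutation p of 0.0286 is the smallest that 4 against 4 libraries can give. Ndufa13 had 66.1, 85.3, 113 and 84.4 FPKM in coffee libraries 1 to 4 and 90.3, 113, 104 and 99.2 FPKM in GTE libraries 1 to 4, against 108, 115, 111 and 116 FPKM in control libraries 1 to 4. Ndufa13 (chr8:69894180-69902558), known also as a cell death regulator, differed by -0.39 (SE 0.13, adjusted p = 0.212), and 28.5% of its 50-base words also occur in other genes, chiefly Tssk6, which lies on the opposite strand at 0.719 FPKM.

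The 4 members with higher means in coffee were far from the threshold. Cox6a2, the muscle isoform of subunit VIa, had a difference of 0.87 (SE 1.08, adjusted p = 0.648), which was -0.14 without coffee 3. Atp5g2 and Atp5g1, which with Atp5g3 encode the same mature subunit c of the ATP synthase ring, differed by 0.04 (SE 0.07, adjusted p = 0.782) and 0.05 (SE 0.10, adjusted p = 0.795). Uqcrc1, a core subunit of complex III, differed by 0.02 (SE 0.12, adjusted p = 0.943). Of the 50-base words of Atp5g2, 38.4% also occur in other genes. The third subunit c gene, Atp5g3, had the highest level of the 3 and differed by -0.10 (SE 0.10, adjusted p = 0.571). Atp5g3 made up 54.6% ± 2.25 of the summed FPKM of the 3 genes in coffee, 55.5% ± 2.91 in GTE and 57.1% ± 1.72 in control libraries (SD, n = 4 each).

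The alpha and beta subunits of the ATP synthase, Cox4i1, Cox5a, Cox5b and the complex II genes also had lower means in coffee. Atp5a1 averaged 275 ± 28.7 FPKM in coffee and 286 ± 24.2 FPKM in GTE, against 296 ± 34.5 FPKM in control libraries (SD, n = 4 each), and its difference between coffee and control was -0.10 (SE 0.11, adjusted p = 0.592). Atp5b differed by -0.11 (SE 0.11, adjusted p = 0.585) and Cox4i1, the widespread isoform of subunit IV, by -0.12 (SE 0.13, adjusted p = 0.601). Cox5a and Cox5b, the nuclear subunits Va and Vb of complex IV, differed by -0.04 and -0.13. The intervals of these 5 genes included 0 and reached below -0.25, for example -0.36 to 0.14 for Atp5b and -0.39 to 0.16 for Cox4i1. In complex II, Sdha, Sdhb, Sdhc and Sdhd differed by -0.19, -0.15, -0.23 and -0.18.

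The size of the coffee difference depended on which libraries entered. Without coffee 1 the median difference of the members was -0.11 and 77 of 85 were lower. Without coffee 3 it was -0.29, and 50 members were lower at an unadjusted p under 0.05 (58.8%, against 13.8% of all tested genes in that fit) with 0 adjusted calls. Without coffee 1, coffee 4 and GTE 1, the 3 libraries with the lowest summed stria genes, it was -0.066 with 71 lower. The mean log2(FPKM + 1) of the marrow list was 8.26 to 9.07 in coffee and 7.36 to 8.09 in control libraries, so list and group cannot be told apart. With that mean as a covariate the median difference was 0.0066 and 39 of 85 were lower. With the brown fat list as a covariate, added after seeing the data, it was -0.11 with 76 lower. When limma weighted the libraries by their spread, 7 members were called, all lower: Ndufa13, Ndufa7, Uqcr10, Uqcrh, Ndufb4c, Ndufa1 and Cox8a. These are 8.24% of the members, against 15.4% of all tested genes called in either direction. At an unadjusted p under 0.05 in the weighted fit, 35.3% of members were lower, against 17.1% of all tested genes. In that fit 0 members were higher, against 17.7%.

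In GTE against control libraries no member passed the adjusted threshold, and most again had lower means. Limma called 0 of 85 members, where it called 0.00631% of all tested genes, and the smallest adjusted p was 0.574. Lower means in GTE were seen in 77 of 85, against 48.4% of all tested genes, with a median log2 difference of -0.11 against 0.0068. At an unadjusted p under 0.05, 0 members were lower (against 4.3% of all tested genes) and 0 higher (against 4.14%), and voom on recovered fragments gave 0 calls and 0 at that threshold among 70 members (against 4.41% of all genes in that fit lower and 4.07% higher). By complex, the medians were -0.11, -0.080, -0.16, -0.12 and -0.079 in complexes I to V, with 37 of 40, 4 of 4, 8 of 8, 15 of 16 and 13 of 17 lower. This comparison shares its control libraries with the coffee comparison, so the 2 sets of differences are not independent.

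Every GTE value lay below every control value for 2 members (2.35%, against 2.95% of all tested genes), Ndufa1 and Uqcr11, and the reverse was true of 0 members (against 2.88%). Uqcr11 was singled out after its values were seen. Ndufa1 had 70.03, 80.4, 116 and 89.5 FPKM in coffee libraries 1 to 4 and 83.5, 97.6, 95.3 and 98.1 FPKM in GTE libraries 1 to 4, against 107, 123, 101 and 116 FPKM in control libraries 1 to 4. Ndufa1, an X-linked accessory subunit of complex I, had all GTE libraries below all control libraries, and its difference was -0.25 (SE 0.14, adjusted p = 0.574). Uqcr11, a small subunit of complex III, had 84.7, 99.5, 97.5 and 97.9 FPKM in GTE libraries 1 to 4, against 101, 119.8, 109 and 102 FPKM in control libraries 1 to 4. Its difference was -0.18 (SE 0.14, adjusted p = 0.657). Ndufa4l2, a gene known to be induced by hypoxia, had the smallest p and differed by -0.33 (SE 0.17, adjusted p = 0.574) at a level of 1.88 ± 0.527 FPKM in GTE and 2.62 ± 0.725 FPKM in control libraries. Atp5e, the epsilon subunit of the ATP synthase, differed by -0.24 (SE 0.14, adjusted p = 0.588) and Ndufa7 by -0.20 (SE 0.11, adjusted p = 0.591).

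Among the 8 members with higher means in GTE than in control, the differences were small. Ndufs6b differed by 0.14 (SE 0.18, adjusted p = 0.797) and Ndufb4c by 0.04 (SE 0.17, adjusted p = 0.947), both annotated as pseudogenes. Atp5s, coupling factor B of the ATP synthase, differed by 0.05 (SE 0.12, adjusted p = 0.899) and Cox6b2, a testis isoform of subunit VIb, by 0.06 (SE 0.19, adjusted p = 0.922). The direction of Atp5s, Cox6b2 and Ndufb4c turned when single libraries were left out. Without GTE 1 the median difference of all members was -0.051 with 63 lower, and without control 2 it was -0.057 with 64 lower. It was 0.0068 with 42 lower with the marrow list as a covariate and 0.017 with 32 lower with the brown fat list.

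In GTE against coffee libraries, which share both groups with the comparisons against control, most members had higher means in GTE. Limma called 0 of 85, as it called 0% of all tested genes, and the smallest adjusted p was 0.718. Higher means in GTE were seen in 75 of 85, against 49.5% of all tested genes, and lower means in 10, against 50.5%. The median log2 difference was 0.093 against -0.0019. At an unadjusted p under 0.05, 2 members were higher (2.35%, against 4.52% of all tested genes) and 0 lower (against 2.23%), and voom gave 0 calls with 1 higher at that threshold among 70 members (1.43%, against 4.52% in that fit). By complex, the medians were 0.089, 0.098, 0.11, 0.12 and 0.055 in complexes I to V. No member's groups were free of overlap, where 1.7% of all tested genes lay wholly higher and 0.839% wholly lower in GTE. Without coffee 1 the median was 0.0024, with 42 of 85 lower in GTE, and without coffee 3 it was 0.19, with 25 higher at an unadjusted p under 0.05 (29.4%, against 7.46% of all tested genes in that fit).

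The 2 members past the unadjusted threshold were both annotated as processed pseudogenes. Ndufb4c had 6.57, 7.61, 8.93 and 4.78 FPKM in coffee libraries 1 to 4 and 8.69, 10.1, 8.70 and 12.0 FPKM in GTE libraries 1 to 4, against 8.93, 10.9, 7.54 and 11.02 FPKM in control libraries 1 to 4. Ndufb4c was lowest in coffee 4 and highest in GTE 4, and its difference between GTE and coffee was 0.46 (SE 0.17, adjusted p = 0.718). Ndufb4 had 43.7, 61.6, 57.6 and 63.7 FPKM in GTE libraries 1 to 4, against 39.0, 48.7, 61.9 and 45.4 FPKM in coffee libraries 1 to 4, and was lowest in coffee 1. Ndufs6b had 1.87, 1.44, 3.18 and 1.67 FPKM in coffee libraries 1 to 4 and 2.59, 2.80, 2.87 and 3.67 FPKM in GTE libraries 1 to 4, against 1.91, 3.08, 3.24 and 2.35 FPKM in control libraries 1 to 4. Ndufs6b differed by 0.41 (SE 0.18, adjusted p = 0.727), at values of a few FPKM over 348 bases. Atp5c1 differed by 0.17 (SE 0.09, adjusted p = 0.754) and Atp5s by 0.21 (SE 0.12, adjusted p = 0.756). In the other direction Cox6a2, Ndufa4l2, Atp5g1 and Atp5g2 differed by -1.27, -0.10, -0.05 and -0.04, with adjusted p-values of 0.799, 0.896, 0.909 and 0.919 by limma.

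The members that varied most were 3 tissue isoforms of complex IV. Only Cox6a2, Cox8b and Cox7a1 had an SD over the 12 libraries above 0.5 on the log2 scale, at 1.64, 0.94 and 0.71, and their highest library stood 74.4, 10.6 and 5.63 times above their lowest. In rodents all 3 are isoforms of heart and skeletal muscle, and Cox8b and Cox7a1 are also strongly expressed in brown fat.

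Cox6a2 had 5.87, 2.77, 84.6 and 4.63 FPKM in coffee libraries 1 to 4 and 6.94, 1.25, 1.79 and 6.38 FPKM in GTE libraries 1 to 4, against 5.73, 1.15, 35.2 and 1.14 FPKM in control libraries 1 to 4. Cox6a2 (chr7:128205435-128206387) was high in coffee 3 and control 3 and low elsewhere, with overlapping groups. Skeletal muscle genes had the same pair of high libraries. Ckm had 4.83, 1.65, 99.96 and 6.08 FPKM in coffee libraries 1 to 4 and 2.80, 0.0976, 0.0597 and 4.41 FPKM in GTE libraries 1 to 4, against 5.15, 0.134, 43.6 and 0.413 FPKM in control libraries 1 to 4. Ckm is muscle creatine kinase. Of the 16 genes of the skeletal muscle list, all 14 tested had higher means in coffee than in control libraries, and 13 had lower means in GTE than in control. Their summed level ranged from 76.0 to 1851 FPKM in coffee, 24.0 to 145 FPKM in GTE and 52.4 to 837 FPKM in control libraries, and Tnnc2 was at 0 in 9 of the 12 libraries. With the muscle list as a covariate the Cox6a2 difference was -0.25 in coffee against control and 0.76 in GTE against coffee, and without coffee 3 it was -0.14 and -0.26. The slow muscle and heart markers Myh7 (0 to 0.0101 FPKM) and Nppa (0 to 0.101 FPKM) were at or near 0. Of the 10 genes on the slow and cardiac muscle list, 3 others passed the filter. The list summed to 7.91 ± 1.78 FPKM in coffee and 6.92 ± 1.47 FPKM in GTE libraries (SD, n = 4 each). The sum was 5.63 ± 0.379 FPKM in control libraries, and coffee 3 was its highest library. The part of slow and cardiac muscle in the Cox6a2 values was not tested.

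Cox8b had 12.4, 37.6, 107 and 50.1 FPKM in coffee libraries 1 to 4 and 24.0, 35.0, 75.1 and 76.9 FPKM in GTE libraries 1 to 4, against 59.4, 131, 85.1 and 65.4 FPKM in control libraries 1 to 4. Cox8b (chr7:140898945-140900446) was lowest in coffee 1 and GTE 1 and highest in control 2 and coffee 3, with overlapping groups, and its differences were -0.999 (SE 0.58, adjusted p = 0.334) for coffee and -0.78 (SE 0.58, adjusted p = 0.657) for GTE against control. Cox7a1 had 9.01, 16.9, 44.5 and 18.4 FPKM in coffee libraries 1 to 4 and 12.4, 18.0, 27.7 and 30.4 FPKM in GTE libraries 1 to 4, against 26.7, 50.7, 38.2 and 27.9 FPKM in control libraries 1 to 4. Cox7a1 (chr7:30184144-30186078) had the same low and high libraries, and differed by -0.84 (SE 0.42, adjusted p = 0.279) and -0.70 (SE 0.42, adjusted p = 0.605). The high value in coffee 3 stood beside high muscle markers, and that in control 2 beside high Ucp1 and low Ckm. Cidea, another brown fat gene, had 2.42, 25.2, 21.5 and 37.2 FPKM in coffee libraries 1 to 4 and 3.39, 3.45, 48.7 and 37.6 FPKM in GTE libraries 1 to 4, against 27.7, 80.0, 11.5 and 26.8 FPKM in control libraries 1 to 4. The part of muscle and brown fat in the Cox8b and Cox7a1 values was not tested.

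**Figure D5:**
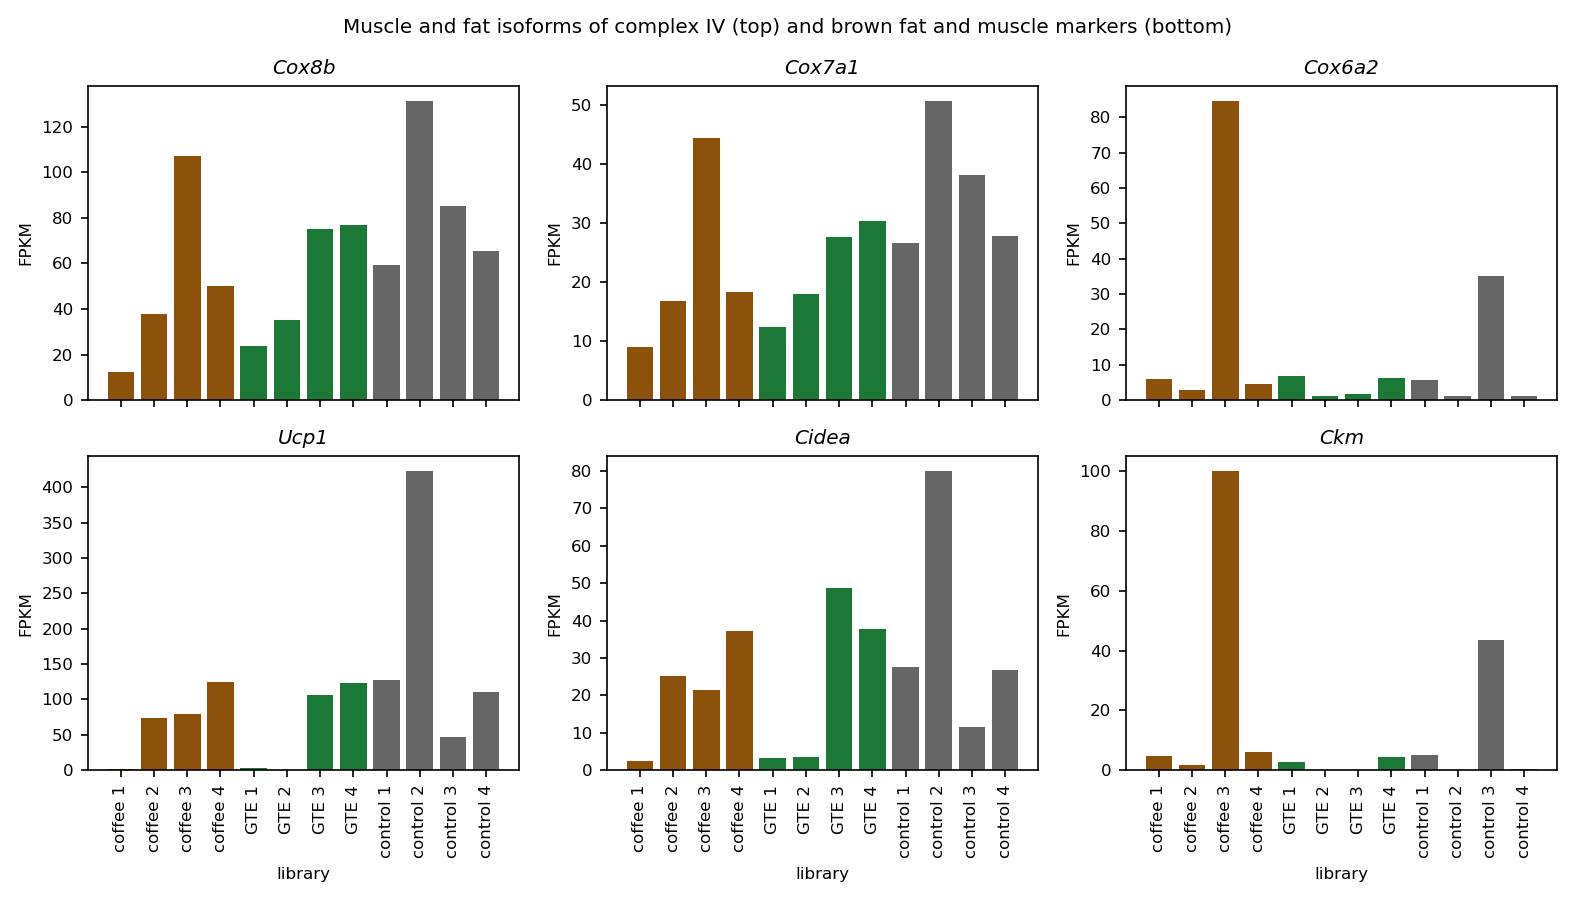
FPKM of Cox8b, Cox7a1 and Cox6a2 (top) and of Ucp1, Cidea and Ckm (bottom) in each library, 1 bar per library coloured by group, in the order coffee, GTE, control. Cox6a2 and Ckm are both high in coffee 3 (84.6 and 99.96 FPKM) and control 3, and Cox8b and Cox7a1 are high in coffee 3 and in control 2, where Ucp1 reaches 423 FPKM.

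The isoforms took the smaller share of their subunit in every library, at most 27.2%, for Cox7a1 in control 2. Cox8b made up 11.04% ± 7.03 of the summed FPKM of subunit VIII genes in coffee, 10.7% ± 4.63 in GTE and 14.8% ± 3.96 in control libraries (SD, n = 4 each). Cox7a1 made up 15.3% ± 6.51 of Cox7a1 and Cox7a2 together in coffee, 15.2% ± 4.61 in GTE and 22.02% ± 4.54 in control libraries. Cox6a2 reached 19.8% of subunit VIa in coffee 3 and 9.64% in control 3, and 0.233% to 2.09% in the other libraries. Cox4i2, the hypoxia-linked lung isoform of subunit IV that is also expressed in pericytes, took 2.39% ± 0.694 of subunit IV in coffee, 2.87% ± 0.547 in GTE and 2.60% ± 0.287 in control libraries. Of 11 tested genes of pericytes and smooth muscle, 7 had lower means in coffee and 10 in GTE than in control, and their sum was 92.3 to 148 FPKM in coffee, 80.6 to 109 FPKM in GTE and 111 to 173 FPKM in control libraries. The level of Cox4i2 was 2.54 ± 0.696 FPKM in coffee, 2.97 ± 0.661 FPKM in GTE and 3.02 ± 0.447 FPKM in control libraries (SD, n = 4 each). Cox6b2 took 3.02% to 6.61% of subunit VIb and Ndufa4l2 0.797% to 1.91% of its pair with Ndufa4 over the 12 libraries.

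The widespread partners varied less than these isoforms. Cox6a1 averaged 338 ± 36.5 FPKM in coffee, 355 ± 32.2 FPKM in GTE and 399 ± 67.5 FPKM in control libraries, Cox7a2 112 ± 19.2 FPKM, 121 ± 13.6 FPKM and 125 ± 8.84 FPKM, and Cox6b1 179 ± 35.6 FPKM, 191 ± 9.92 FPKM and 212 ± 19.4 FPKM in the same order (SD, n = 4 each). Cox7a2l, a factor of respiratory supercomplexes, averaged 135 ± 16.5 FPKM in coffee, 143 ± 11.9 FPKM in GTE and 155 ± 3.62 FPKM in control libraries. Its coffee difference was -0.20 (SE 0.09, adjusted p = 0.255). Cox7b, an X-linked subunit, differed by -0.28 (SE 0.15, adjusted p = 0.304) in coffee against control. Cox6b1, Cox7a2 and Cox6a1 differed by -0.26, -0.16 and -0.23 in coffee and by -0.15, -0.04 and -0.16 in GTE against control.

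Related pathways held 0 adjusted limma calls in all 3 comparisons. Of all tested genes, 48.2% had lower means in coffee and 48.4% in GTE than in control. In coffee against control 10.8% of all tested genes were lower at an unadjusted limma p under 0.05. Assembly factors, the proteins that build the complexes, had lower means in coffee than in control in 34 of 44 tested genes (median -0.090), and 2 were lower at an unadjusted p under 0.05. These were Cox14 at -0.35 (adjusted p = 0.22) and Ndufaf8 at -0.29 (adjusted p = 0.221). In GTE against control 23 of 44 were lower (median -0.012). A list of other chain genes held genes of coenzyme Q, cytochrome c and electron transfer, with Higd1a, Higd2a, Slc25a3, Slc25a4, Slc25a5 and Ucp2. It also held Cyc1, cytochrome c1 of complex III, whose symbol the member rule does not take. Its tested genes were lower in 15 of 20 in coffee (median -0.13) and in 14 of 20 in GTE (median -0.074) against control. Of these, Coq5, an enzyme of coenzyme Q synthesis, differed by -0.17 in coffee (adjusted p = 0.23). Citric acid cycle genes were lower in 14 of 18 in coffee (median -0.16) and 15 of 18 in GTE (median -0.10). Glycolysis genes were lower in 8 of 19 in coffee (median 0.069) and 12 of 19 in GTE (median -0.064), with Hk2, a hexokinase, at 0.42 (adjusted p = 0.223) and Pfkl, a phosphofructokinase, at -0.38 (adjusted p = 0.212) in coffee against control.

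Of genes that drive mitochondrial biogenesis, 9 of 20 had lower means in coffee than in control libraries (median 0.032). At an unadjusted p under 0.05, 4 of the 20 were lower, against 10.8% of all tested genes. Esrrb, an estrogen-related receptor that also marks the stria, had 9.73, 15.2, 20.3 and 10.2 FPKM in coffee libraries 1 to 4, against 22.6, 25.4, 27.6 and 29.1 FPKM in control libraries 1 to 4. All coffee libraries of Esrrb lay below all control libraries, as for 6.89% of all tested genes, and the limma difference was -0.92 (adjusted p = 0.199). Esrrb is counted both here and in the stria list. Esrra, a related receptor known to act on respiratory chain genes, differed by -0.31 (adjusted p = 0.221) and Tfb2m, a mitochondrial transcription factor, by -0.21 (adjusted p = 0.22). In GTE against control 7 of 20 were lower (median 0.050). The protein genes of the mitochondrial genome were lower in 10 of 12 in coffee (median -0.097) and 7 of 12 in GTE (median -0.0017) against control. All measured genes of the mitochondrial genome, RNA genes among them, made up between 7.83% and 14.6% of all FPKM in a library. Hypoxia response genes were lower in 9 of 13 in coffee (median -0.028) and 7 of 13 in GTE (median -0.032). Adm, the gene of adrenomedullin, differed by -0.53 (adjusted p = 0.21) and Pfkfb4, a glycolytic regulator, by 0.73 (adjusted p = 0.22) in coffee against control. Within that list Pdk1, a kinase that restrains pyruvate entry into the citric acid cycle, differed by 0.46 in GTE against coffee (limma adjusted p = 0.634).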

How the data were processed

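RNA was measured in 12 cochlear libraries, 4 per group. Per the labels' protocols, extraction used Trizol and library preparation a stranded mRNA kit. The authors deposited FPKM for each Ensembl gene in each library, and the submitters' processing notes name Trimmomatic, HISAT2, Cufflinks and HTSeq with mm10. Versions, annotation and the strand setting of counting are not given in these sources. Without a known strand setting, values of the 27 members that share exon bases with a gene on the opposite strand are uncertain.

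Symbols, coordinates and exon lengths came from GENCODE M21 (mm10), with symbols for 34459 of 34538 genes. FPKM steps gave denominators of 20526025 to 24835934 fragments, with 31885 genes (92.319%) whole within 0.01 fragments in every library, 74 members among them. The members held 162515 to 244862 fragments in a library. The level of 3 fragments on 2000 bases was 0.0604 to 0.0731 FPKM, a floor for counting error only.

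The test was limma 3.58.1 (R 4.3.3) on log2(FPKM + 1), a scale that understates changes of low genes. It held 3 group means over all 12 libraries with a mean-variance trend, over the 15854 genes that reached 1 FPKM in 4 or more libraries, with Benjamini-Hochberg adjustment within a comparison and a threshold of 0.05. Exact permutation tests were two-sided over 70 arrangements. Named members were, per comparison and direction, the 4 with the smallest p, the 3 highest of each complex and the isoforms; of each pathway list, up to 3 by p. Members and lists were chosen with earlier results of these data known. In all, 28 alternatives were tried, 26 planned and 2 (voom, brown fat covariate) added after seeing the data.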

Additional observations from a re-analysis of the deposited data

Results flagged for a closer look

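Single libraries stood apart from the other 3 of their group in 12 of 141 groups of 4 values examined. Independent normal values would give about 1 in 20. These groups share the 12 libraries and members that moved together, and some hold only values of 0, so the count cannot be set against that rate. Cox6a2 was at 84.6 FPKM in coffee 3, against 2.77 to 5.87 FPKM in the other coffee libraries, and at 35.2 FPKM in control 3, against 1.14 to 5.73 FPKM in the other control libraries. Atp5s was low in coffee 1, at 5.83 FPKM against 7.38 to 7.61 FPKM. Uqcrc1 was low in coffee 1, at 44.1 FPKM against 51.5 to 52.0 FPKM. Cox6b1 was low in GTE 1, at 176 FPKM against 195 to 197 FPKM. Cox8c was listed at 0.0886 FPKM in GTE 2, which is 1 fragment, and at 0 in the other GTE libraries. Atp5g1 was low in control 1, at 16.6 FPKM against 17.9 to 18.0 FPKM. Sdhb was high in control 2, at 75.4 FPKM against 54.7 to 56.7 FPKM.

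The median deviation of the members was -0.16 in GTE 1 on the log2 scale, against 0.056 to 0.057 in the other GTE libraries. In the same library it was -0.17 in complex I and -0.16 in complex IV, against 0.053 to 0.061 and 0.017 to 0.051 in the others. In control 2 complex III deviated by 0.33, against 0.074 to 0.094 in the other control libraries.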

How the results depend on the processing

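The count of adjusted calls was 0 under every alternative in GTE against control and GTE against coffee, and in coffee against control under all but library weights, which called 7 members. The median difference kept its sign except with the marrow covariate (0.0066, 0.0068 and -0.0006 in coffee against control, GTE against control and GTE against coffee) and, in GTE against control, with the brown fat covariate (0.017). In coffee against control the marrow list and the group cannot be told apart. Leaving out single libraries gave medians of -0.29 to -0.11, -0.13 to -0.051 and 0.0024 to 0.19, with 0 calls. Members lower at an unadjusted p under 0.05 in coffee against control numbered 0 to 50 over the alternatives, against 10 as reported (23 with median scaling, against 15.1% of all tested genes, and 30 with library weights, against 17.1%).

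In coffee against control, Cox6a2 turned to -0.25 with the muscle covariate and to -0.14 without coffee 3 (single-library range -0.14 to 1.75), and Atp5g2 to -0.018, -0.078 and -0.0036 with median scaling and the marrow and muscle covariates. Atp5g1 turned to -0.0075 with median scaling and -0.039 without coffee 3 (range to 0.13). Uqcrc1 turned to -0.039 with median scaling, -0.0004 with scaling without the mitochondrial genome, and -0.065 to -0.0002 without control 3, control 4, coffee 2, coffee 3 or coffee 4 (range to 0.12). In GTE against control, Atp5s turned to -0.014 and -0.011 without GTE 2 or GTE 4 (range to 0.11), and Ndufb4c to -0.058 and -0.048 without control 3 or GTE 4 (range to 0.11). Cox6b2 turned to -0.046 with library weights, -0.033 with the marrow covariate, -0.099 without GTE 1, alone or with coffee 1 and coffee 4, and -0.039 without control 3 (range to 0.20). In GTE against coffee, Cox6a2 turned to 0.76 with the muscle covariate, Ndufa4l2 to 0.089 with library weights, Atp5g1 to 0.032 without coffee 3 (range from -0.14), and Atp5g2 to 0.019 and 0.039 with the marrow and muscle covariates. The cause was not tested.

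The labels do not say that replicate numbers pair the libraries. Of 12 same-numbered pairs, 5 had correlated deviations over 0.1 (r from -0.38 to 0.55). Pairs with different numbers were not set beside them, so pairing was not settled. A fit with the replicate number as a block gave 0 calls in each comparison, with 20 members lower, 1 lower and 3 higher at an unadjusted p under 0.05 in coffee against control, GTE against control and GTE against coffee (23.5%, 1.18% and 3.53%, against 12.8%, 5.18% and 5.54% of all tested genes). The library medians of the members had an SD of 0.155 within groups, beside a median difference of -0.20 in coffee against control.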
